A study of Mus musculus with 4 samples.

Results

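The Myc, Max and Mxd network is a group of basic helix-loop-helix leucine zipper transcription factors, and its 9 genes Myc, Mycn, Max, Mxi1, Mxd1, Mxd3, Mxd4, Mnt and Mlx were followed on 4 single-colour Agilent mouse expression arrays. The members were chosen by gene symbol, and every probe carrying a member's symbol was used, which gave 16 of the 56605 probes and 9 of the 27248 gene symbols on the array. The arrays hold RNA of naive CD4+ T cells and of induced Treg (iTreg) cells at 3 h of culture, each from WT and from Nr4a triple knockout (Nr4a-TKO) cells, with 1 array for each of these 4 groups. Nr4a-TKO cells lack the orphan nuclear receptors Nr4a1, Nr4a2 and Nr4a3, and were bred on a C57BL/6J background from mice with Nr4a1-floxed, Nr4a2-floxed and Nr4a3-/- alleles, of both sexes, and their marrow also carried a Foxp3 hCD2-hCD52 knock-in reporter. What drives the Cre recombinase is not given in the sources used here. For the WT marrow the paper names neither a strain nor a reporter, though WT cells were also sorted as Foxp3-. Naive CD4+ T cells were CD25 low, CD44 low, CD62L high and Foxp3-. They were sorted from spleen and lymph nodes of irradiated Rag2-/- hosts reconstituted with bone marrow. Hosts of the Nr4a-TKO cells had also received WT marrow, mixed with the mutant marrow, whereas hosts of the WT cells had received WT marrow alone, so that genotype and the cells' environment before sorting cannot be told apart. For iTreg at 3 h, these cells were cultured for 3 h with antibodies to CD3, CD28, IFN-γ and IL-4, with IL-2 and with TGF-β1, at 1 of 2 concentrations that the labels do not assign to these arrays. No group has a replicate, so that each difference below compares 2 arrays and has no test.

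Myc and Mycn bind DNA only as dimers with Max, and these dimers recruit histone acetyltransferases to E-box elements and activate genes of ribosome production, nucleotide synthesis, transport and metabolism. Mxd1, Mxi1, Mxd3, Mxd4 and Mnt also pair with Max at E-boxes but recruit Sin3 and histone deacetylases, and the Mxd proteins are best known from resting and differentiating cells. Mlx pairs with Mnt, Mxd1 and Mxd4 and with the glucose-sensing proteins encoded by Mlxip and Mlxipl. In T cells, Myc is an early response gene of the T cell receptor and is required for the growth and metabolic reprogramming that precede division.

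The E-box that these dimers read, CACGTG, was searched in the promoter windows of the members, taken from RefSeq on GRCm38.p6 and running from 250 bases before to 50 bases after each annotated start. The motif is its own reverse complement, so that a single search covers both strands. Of the 9 members, 8 had an entry, and the windows of 4 held the motif, against 2187 of 27025 genes (8.09%) and 2349 of 32851 windows (7.15%). These were Mxd4, Mnt, Max and Mlx, whose windows are printed here 5′ to 3′ on the gene's own strand, with the E-box in capitals, because the network's own DNA element stands in promoters of the network's own genes.
Mxd4, chr5:34187661-34187960, minus strand: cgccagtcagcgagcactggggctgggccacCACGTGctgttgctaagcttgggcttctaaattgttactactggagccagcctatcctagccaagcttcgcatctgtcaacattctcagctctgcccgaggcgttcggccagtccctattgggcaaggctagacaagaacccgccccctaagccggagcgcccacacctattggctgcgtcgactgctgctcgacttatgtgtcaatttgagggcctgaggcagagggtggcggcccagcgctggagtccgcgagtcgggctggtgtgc
Mnt, chr11:74830674-74830973, plus strand: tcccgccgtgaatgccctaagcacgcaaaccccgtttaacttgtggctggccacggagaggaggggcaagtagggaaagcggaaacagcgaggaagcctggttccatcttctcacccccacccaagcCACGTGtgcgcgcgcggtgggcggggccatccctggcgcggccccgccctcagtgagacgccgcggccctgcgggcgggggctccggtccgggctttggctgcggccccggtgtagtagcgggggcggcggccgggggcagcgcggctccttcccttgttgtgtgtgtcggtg
Max, chr12:76962199-76962498, minus strand: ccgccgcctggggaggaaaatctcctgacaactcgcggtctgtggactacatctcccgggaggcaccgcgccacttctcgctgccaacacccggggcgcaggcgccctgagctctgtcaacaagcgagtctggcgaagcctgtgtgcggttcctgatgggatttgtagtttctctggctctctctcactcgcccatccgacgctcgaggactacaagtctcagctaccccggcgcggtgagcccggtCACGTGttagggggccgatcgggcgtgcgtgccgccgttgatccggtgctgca
Mlx, chr11:101087040-101087339, plus strand: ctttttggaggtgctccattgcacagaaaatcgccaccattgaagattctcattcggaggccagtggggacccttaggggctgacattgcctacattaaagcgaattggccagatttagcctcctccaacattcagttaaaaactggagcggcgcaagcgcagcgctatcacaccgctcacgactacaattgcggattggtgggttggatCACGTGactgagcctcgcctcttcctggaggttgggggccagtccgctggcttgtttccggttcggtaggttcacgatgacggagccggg
The first base of the E-box lies 219 bases before the start in Mxd4, 123 bases before it in Mnt, 40 bases before it in Mlx and 3 bases before it in Max. These letters were not in the windows of Mycn, Mxd1, Mxd3 or Mxi1. The 4 genes with the motif did not share a direction in the measurements that follow: at their brighter probes Mxd4 was over 2-fold lower at 3 h in both genotypes, and Mnt, which read higher, and Max and Mlx, which read lower, stayed within 2-fold.

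Levels are given as log2 of the background-corrected and quantile-normalized intensity. Of the 16 probes, 13 were well above local background on all 4 arrays. Probes printed on at least 5 spots gave the only available measure of error: for probes with a level of 6 or over, the SD of a difference between 2 arrays was 0.17, and for probes under 6 it was 0.34. This error covers the array alone and not the variation between mice or cultures. The genes with more than 1 probe are represented by the brighter probe, and the other probe is given beside it. Levels of different genes were not compared, since probes differ in their binding.

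The label check and the sample composition touch the readings by genotype. On the arrays labelled Nr4a-TKO, the Nr4a1 probe read 8.39 in naive T and 11.82 at 3 h, against 7.05 and 11.34 on the arrays labelled WT, and both Nr4a2 probes also read higher on the arrays labelled Nr4a-TKO. Only for Nr4a3 were 2 of 3 probes lower on the array labelled Nr4a-TKO at 3 h, at 7.42 against 8.89 and 7.48 against 9.34. Whether these probes lie within the deleted exons is not given in the sources used here, so that the check does not settle the labels, and the directions between genotypes below rest on the labels. On every array the 8 measured naive CD4 T cell markers exceeded the background, and Cd4 read between 10.07 and 11.60. All 6 B cell markers were also above background, with summed linear levels of 898 in WT and 993 in Nr4a-TKO naive T, and 548 in WT and 717 in Nr4a-TKO at 3 h, and all 6 were higher in Nr4a-TKO than in WT at 3 h, of which Cd79a (1.14) was past 2-fold. At 3 h, all 8 naive CD4 T cell markers read lower in Nr4a-TKO, with a median of -0.24 and summed linear levels of 8210 against 10300. Of the 8 early activation markers, which include Nr4a1, 7 read higher in Nr4a-TKO at 3 h, with summed levels of 34500 against 29200, and Il2 (1.20) was past 2-fold, whereas Tnfrsf9 (-3.60) was lower. Of all genes, 49.5% read lower in Nr4a-TKO at 3 h. Several marker differences were within the spot error: Ms4a1 (0.065), Pax5 (0.11), Blk (0.27), Cd3g (-0.02), Il7r (-0.07), Il2ra (0.05), Irf4 (0.11) and Egr2 (0.169). The 2 CD8 T cell markers summed to between 74.4 and 142 and the 5 erythroid markers to between 180 and 237 with Hbb-b1 not above background, each over all 4 arrays. Of the 7 myeloid markers, 3 exceeded the background on all arrays and Adgre1 on none. Their summed level, between 34600 and 39800, was mostly that of the Itgam probe, which read between 14.98 and 15.14. Csf1r read between 11.16 and 11.76 and S100a9 between 5.28 and 6.76, while Lyz2 read between 3.79 and 4.27. Cd14 read 6.66 in WT naive T against 3.97 in Nr4a-TKO naive T. The part of these cells and of the activation state in the results was not tested, and in such bulk RNA fewer cells of a type and less RNA per cell cannot be told apart.

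At 3 h, Myc was higher in both genotypes, whereas 3 of its antagonists, Mxd4, Mxi1 and Mxd1, were lower. Among the 8 members that could be compared in WT, 1 was over 2-fold higher (Myc) and 3 were over 2-fold lower, beside 8.59% of 19624 genes higher and 9.01% lower on the whole array. Among 9 members in Nr4a-TKO, 1 was over 2-fold higher (Myc) and 2 were over 2-fold lower (Mxd4 and Mxi1), beside 8.03% and 8.43% of 20028 genes. The median change of the members was -0.40 in WT and -0.29 in Nr4a-TKO, whereas that of all genes was -0.06 and -0.02. With an offset of 50 in the background correction, which draws dim probes together, Myc stayed past 2-fold in both genotypes and none of the antagonists did. The readings of every probe are shown by array in the plot of levels.

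**Figure D1:**
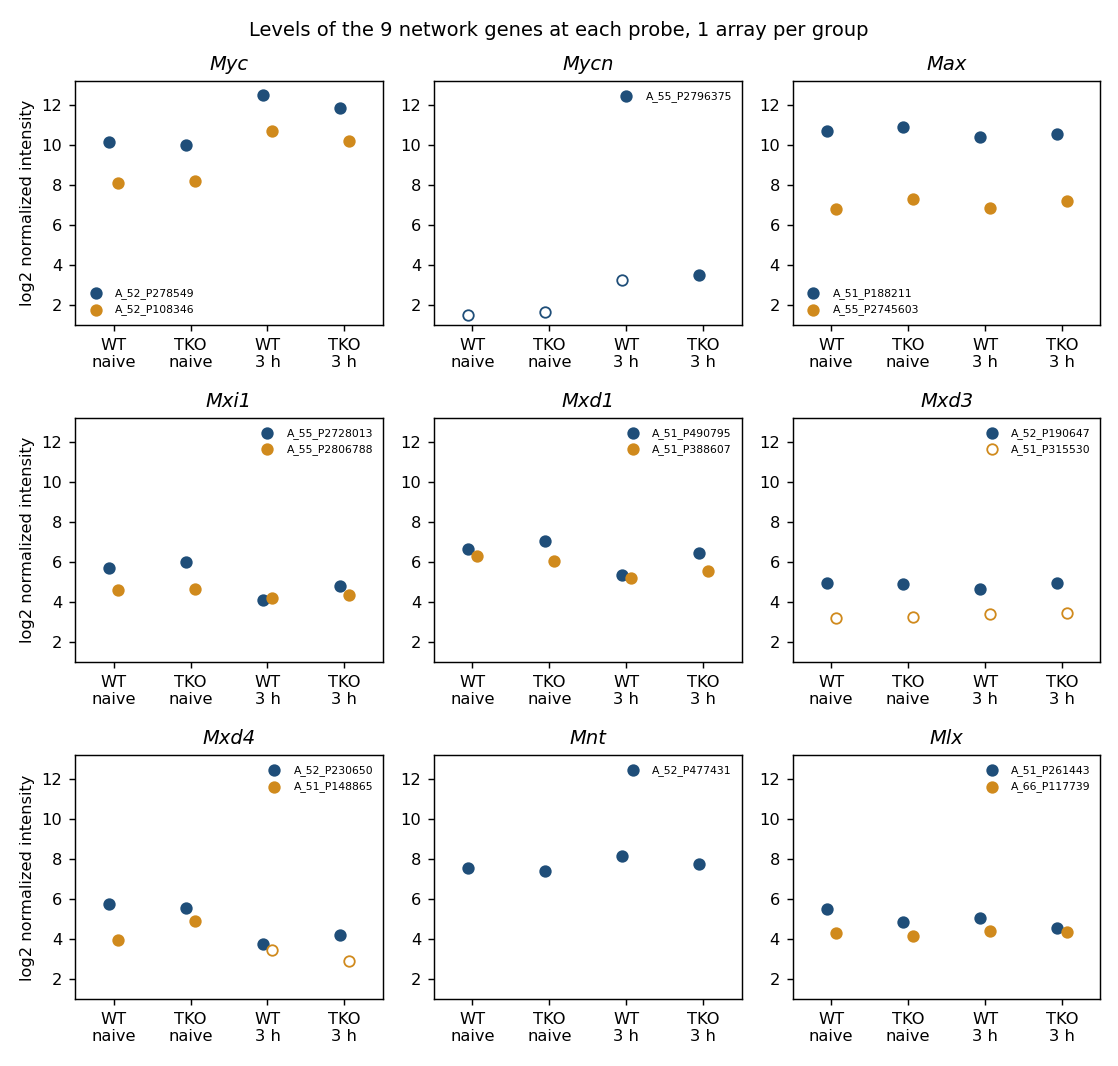
Level of each network gene (log2 normalized intensity, vertical axis) on the 4 arrays (horizontal axis), with 1 colour for each probe of a gene, filled points for probes well above background and open points for those that were not. Both Myc probes are highest on the array of WT iTreg at 3 h, while Mxd4, Mxi1 and Mxd1 have their lowest reading there at the brighter probe.

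Myc encodes the activating member that the network is named after. Its brighter probe, A_52_P278549 (mm9 chr15:61820925-61820984), read 10.16 in WT and 10.02 in Nr4a-TKO naive T, and 12.51 in WT and 11.85 in Nr4a-TKO at 3 h. Both naive arrays therefore lay below both 3 h arrays, and the naive levels differed by less than the spot error. The change in WT was 2.35 on the log2 scale, or 5.09-fold, which placed Myc at rank 208 of 19624 genes from the highest. In Nr4a-TKO it was 1.82, or 3.54-fold, at rank 378 of 20028. The other probe, A_52_P108346 (mm9 chr15:61821417-61821476), read 8.09, 8.21, 10.71 and 10.20 in the same order of arrays. It gave the same picture, with a change of 6.14-fold in WT and 3.97-fold in Nr4a-TKO.

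At 3 h, Myc read lower in Nr4a-TKO than in WT at both probes, by 1.58-fold at the brighter probe (log2 difference -0.66) and by 1.43-fold at the other (-0.51). In naive T the 2 probes gave differences of -0.14 and 0.12, within the spot error and of opposite sign. The change from naive T to 3 h was accordingly smaller in Nr4a-TKO by 0.53 at the brighter probe and by 0.63 at the other, against a spot SD of 0.25 for such a difference of changes. Neither genotype difference at 3 h reached 2-fold.

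Mycn, the paralog of Myc known from neural and other progenitor cells, was near the limit of detection. Its single probe, A_55_P2796375 (mm9 chr12:12942981-12943040), read 1.51 in WT and 1.67 in Nr4a-TKO naive T, and 3.24 in WT and 3.52 in Nr4a-TKO at 3 h. Only the last of these was well above background. Its change in Nr4a-TKO was therefore only bounded, at 1.11-fold or more, and in WT no change could be given.

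Max, the obligate partner of Myc and of the Mxd proteins, was present on all arrays and stayed within 2-fold. Its brighter probe, A_51_P188211 (mm9 chr12:78038283-78038342), read 10.71 in WT and 10.88 in Nr4a-TKO naive T, and 10.39 in WT and 10.53 in Nr4a-TKO at 3 h. The changes of -0.32 in WT and -0.35 in Nr4a-TKO were thus alike, and differed by 0.03. At the other probe, A_55_P2745603 (mm9 chr12:78039312-78039371), the changes were 0.06 and -0.07, and Nr4a-TKO was above WT by 0.49 in naive T and by 0.36 at 3 h. While Myc differed by more than 3.5-fold between stages at either probe, its partner therefore differed by at most 1.27-fold.

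Mxd4, which encodes a Max-binding repressor, had the largest decrease among the brighter probes of the members. Its brighter probe, A_52_P230650 (mm9 chr5:34516836-34516895), read 5.78 in WT and 5.59 in Nr4a-TKO naive T, and 3.77 in WT and 4.23 in Nr4a-TKO at 3 h. The 2 naive arrays lay above the 2 arrays of 3 h. The level was lower at 3 h by 4.02-fold in WT (log2 change -2.01) and by 2.56-fold in Nr4a-TKO (-1.35), and the change in WT ranked 468 of 19624 genes from the lowest. The change in Nr4a-TKO was smaller by 0.65, against a spot SD of 0.48 for a difference of changes at this brightness. This gap depended on the background step: with an offset of 50 the changes were -0.72 in WT and -0.51 in Nr4a-TKO, closer together than that SD. The other probe, A_51_P148865 (mm9 chr5:34520307-34520366), read 3.98 and 4.94 in WT and Nr4a-TKO naive T and was not well above background at 3 h in either genotype. It gave decreases of at least 1.41-fold in WT and at least 3.65-fold in Nr4a-TKO, so that both probes were lower at 3 h. Since these are bounds, the order of the genotypes cannot be read from this probe, which in naive T was 1.94-fold higher in Nr4a-TKO while the brighter probe differed by -0.19.

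Mxi1, another Max-binding repressor, was lower at 3 h by 2.97-fold in WT and 2.36-fold in Nr4a-TKO at its brighter probe. This probe, A_55_P2728013 (mm9 chr19:53406950-53407009), read 5.70 in WT and 6.03 in Nr4a-TKO naive T, and 4.12 in WT and 4.79 in Nr4a-TKO at 3 h. The naive levels of both genotypes lay above the levels at 3 h. At the other probe, A_55_P2806788 (mm9 chr19:53447579-53447638), the readings were closer together, at 4.60, 4.65, 4.20 and 4.37, and the changes of -0.40 and -0.28 were near the spot error. The 2 probes lie far apart along the gene, and the decrease past 2-fold was seen at the first of them alone.

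Mxd1, the founding member of the Mxd repressors, had the largest measured difference between the genotypes among the probes of the members. Its brighter probe, A_51_P490795 (mm9 chr6:86597190-86597249), read 6.68 in WT and 7.05 in Nr4a-TKO naive T, and 5.36 in WT and 6.48 in Nr4a-TKO at 3 h. The array of WT iTreg at 3 h stood below the other arrays. The level at 3 h was lower than in naive T by 2.49-fold in WT (-1.32) and by 1.48-fold in Nr4a-TKO (-0.57). The other probe, A_51_P388607 (mm9 chr6:86600751-86600810), read 6.31, 6.04, 5.23 and 5.57 in the same order of arrays, with decreases of 2.11-fold and 1.39-fold. The change was smaller in Nr4a-TKO at both probes, by 0.75 and by 0.60.

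In iTreg at 3 h, Mxd1 was 2.18-fold higher in Nr4a-TKO than in WT at the brighter probe (log2 difference 1.12) and 1.26-fold higher at the other (0.34). It was the 1 member of 9 past 2-fold in this comparison and ranked 278 of 19854 genes from the highest, while 1.77% of these genes were over 2-fold higher in Nr4a-TKO and 1.92% over 2-fold lower. Since only 1 of the 2 probes passed 2-fold, this count rests on the choice of probe, and it was also lost without background correction and with an offset of 50. The summed level of the B cell markers was also higher on the array of Nr4a-TKO iTreg at 3 h, at 717 against 548, and its part in this difference was not tested. In naive T, Mxd1 differed by 0.37 at one probe and by -0.27 at the other.

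Mxd3, a member described mainly in proliferating cells, showed no difference past 2-fold. Its brighter probe, A_52_P190647 (mm9 chr13:55427000-55427059), read 4.95 in WT and 4.91 in Nr4a-TKO naive T, and 4.66 in WT and 4.94 in Nr4a-TKO at 3 h. All of these lie within the spot error of probes at this brightness. The other probe, A_51_P315530 (mm9 chr13:55427253-55427426), was not well above background on any array.

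Mnt, the repressor that opposes Myc in resting and cycling cells alike, was the one antagonist with a higher reading at 3 h in both genotypes by more than the spot error. Its single probe, A_52_P477431 (mm9 chr11:74658915-74658974), read 7.58 in WT and 7.42 in Nr4a-TKO naive T, and 8.15 in WT and 7.78 in Nr4a-TKO at 3 h. The 3 h arrays lay above the naive arrays, by 1.48-fold in WT and 1.28-fold in Nr4a-TKO. As with Myc, the array of WT iTreg at 3 h read highest, and Nr4a-TKO lay 0.37 below it.

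Mlx links the network to the nutrient-sensing Mlxip and Mlxipl proteins. Its brighter probe, A_51_P261443 (mm9 chr11:100952426-100952485), read 5.54 in WT and 4.85 in Nr4a-TKO naive T, and 5.06 in WT and 4.56 in Nr4a-TKO at 3 h. It was lower in Nr4a-TKO at both stages, by 1.62-fold in naive T and 1.42-fold at 3 h. At the other probe, A_66_P117739 (mm9 chr11:100952890-100952949), these differences were -0.15 and -0.07, within the spot error, so that the probes did not bear each other out.

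The position of the members among all genes is shown in the distribution of changes. Myc lay in the upper tail in both genotypes, Mxd4 and Mxi1 lay in the lower tail, and Mxd1 lay beyond 2-fold in WT alone. Max, Mxd3, Mnt and Mlx were within the body of the distribution, at absolute changes of 0.57 or less.

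**Figure D2:**
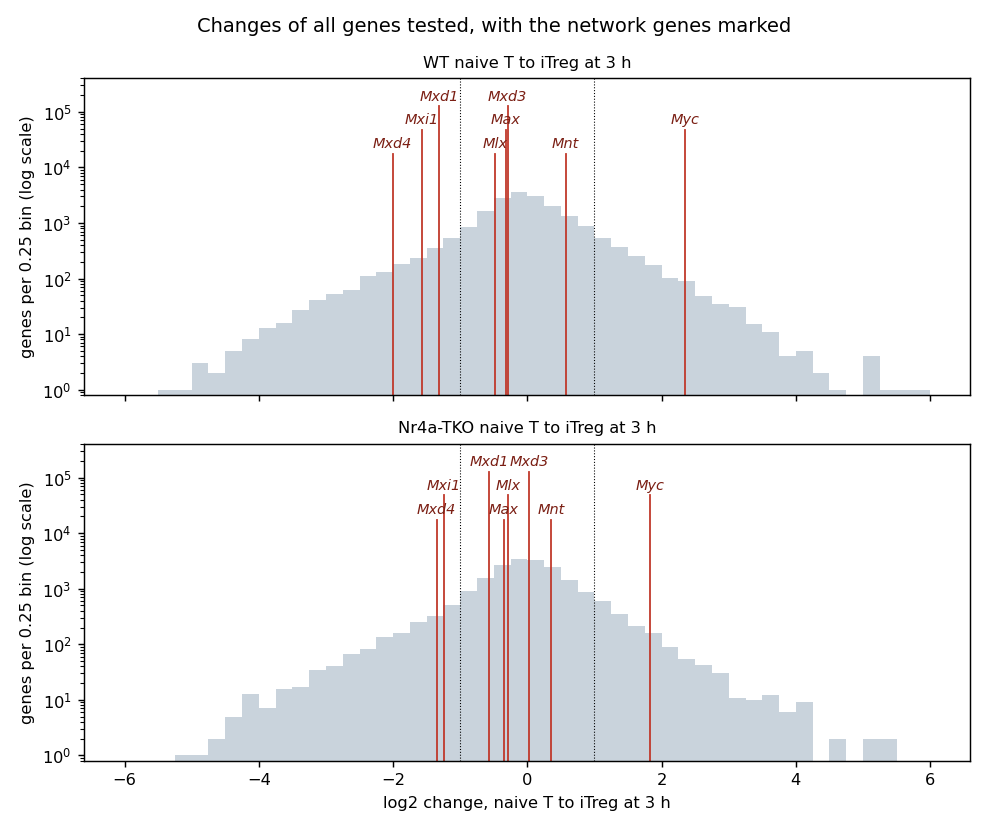
Number of genes (vertical axis, log scale) by log2 change between the naive stage and 3 h (horizontal axis, bins of 0.25), for WT above and Nr4a-TKO below, with red lines at the measured change of the network genes' brighter probes and dotted lines at 2-fold. Myc stands at 2.35 and 1.82, and Mxd4 at -2.01 and -1.35.

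Differences between the genotypes were smaller than those between the stages for Myc, Mxd4 and Mxi1 at their brighter probes. In naive T none of the 8 members measured was past 2-fold in either direction, while 1.9% of 19523 genes were over 2-fold higher in Nr4a-TKO and 1.64% over 2-fold lower. At 3 h, the median over the 9 members was 0.15, with 6 above 0 and 3 below 0. Of all 19854 genes, 49.5% were below 0, with a median of 0.00. The 6 above 0 include Mycn, whose 0.09 is a bound, and Max, whose 0.15 at the brighter probe lies within the spot error. The 3 below 0 were Myc, Mnt and Mlx, and the 4 Mxd-type repressors Mxd1, Mxi1, Mxd4 and Mxd3 were all above 0, at 1.12, 0.67, 0.46 and 0.28 at their brighter probes. The last of these lies within the spot error. At the other Mxi1 probe the difference was 0.17, also within the spot error, and the other Mxd4 probe could not be compared at 3 h. With an offset of 50, the brighter probes of Mxi1 and Mxd4 differed by only 0.21 (0.205) and 0.11.

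**Figure D3:**
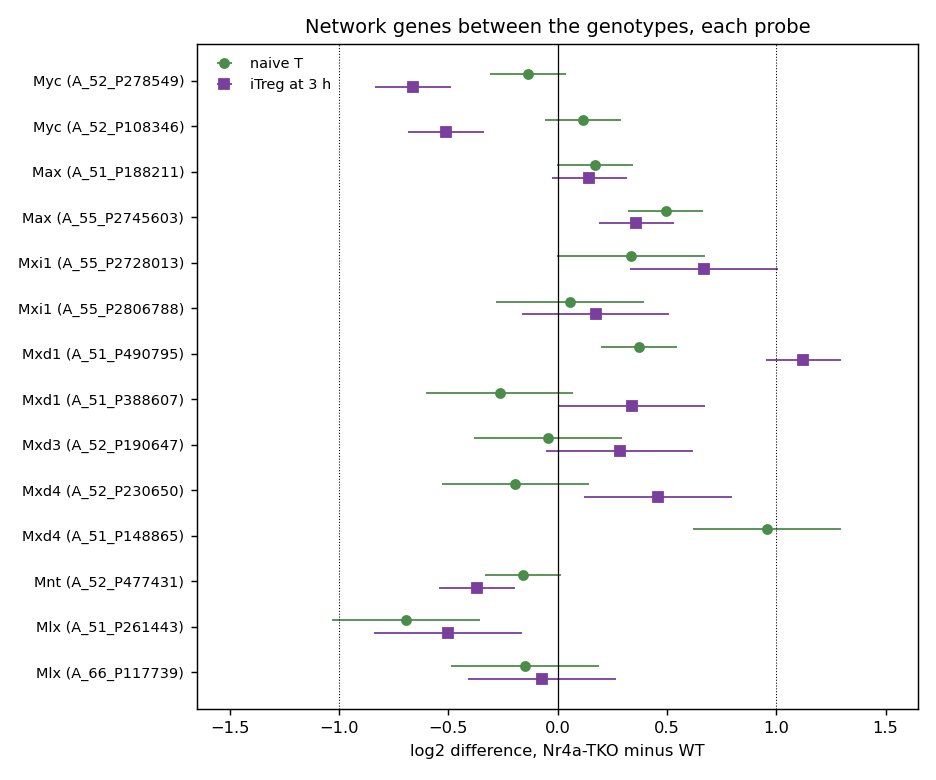
Log2 difference of Nr4a-TKO minus WT (horizontal axis) at each probe of the network genes (vertical axis), in naive T (green circles) and in iTreg at 3 h (violet squares), where measured on both arrays. Bars are 1 SD of a difference between spots of probes of like brightness and dotted lines mark 2-fold. At 3 h, Myc lies below 0 at both probes and Mxd1 above 0 at both, with 1 Mxd1 probe past 2-fold.

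Genes widely described as activated by Myc were nearly all higher at 3 h in both genotypes. Of 46 such genes, 39 were over 2-fold higher in WT and none over 2-fold lower, with a median change of 1.89, whereas the median of all genes was -0.06. In Nr4a-TKO, 36 were over 2-fold higher and none lower, with a median of 1.73 beside -0.02 for all genes. The largest increases in WT were in Tfrc (3.75 in WT and 3.61 in Nr4a-TKO), the transferrin receptor, Shmt2 (3.36 and 2.67), a mitochondrial enzyme of one-carbon metabolism, and Srm (3.02 and 2.84), the spermidine synthase. The nucleolar genes Ncl (2.39 and 2.31) and Nop56 (1.64 and 1.60) and the amino acid transporter Slc7a5 (3.01 and 2.69), which were chosen after their values were seen, were higher as well. Pprc1 alone was lower, at -0.48 and -0.22, but this was at its brightest probe only, and its other 3 probes were higher at 3 h.

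The small deficit of Myc in Nr4a-TKO at 3 h stood beside small deficits in this list. At 3 h, 38 of the 46 genes read lower in Nr4a-TKO than in WT, with a median of -0.11, while 49.5% of all genes read lower and their median was 0.00. None was past 2-fold, and the differences ranged from -0.65 in Srm to 0.21 in Ccnd2. The change from naive T to 3 h was smaller in Nr4a-TKO for 35 of the 46 genes, with a median of -0.14, beside 48.1% of 18790 genes and a median of 0.015. In naive T, by contrast, 20 of 45 genes read lower in Nr4a-TKO and the median was 0.01. A difference of 0.11 or 0.14 is under the spot error of a single gene. The genes of such a list share the arrays and are not independent replicates. Most of them rise at 3 h, whereas only 8.59% of all genes in WT and 8.03% in Nr4a-TKO were over 2-fold higher. All genes are therefore not a matched comparison for this list. Whether other genes that rise at 3 h have like deficits in Nr4a-TKO was not tested. The E-box was found in the windows of 10 of the 38 listed genes with an entry (26.3%), beside 8.09% of all genes. These were Cdk4, Eif4a1, Eif4e, Hspd1, Impdh2, Ldha, Nme1, Paics, Slc16a1 and Wdr43. Whether the motif bears on the differences between the genotypes was not tested.

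**Figure D4:**
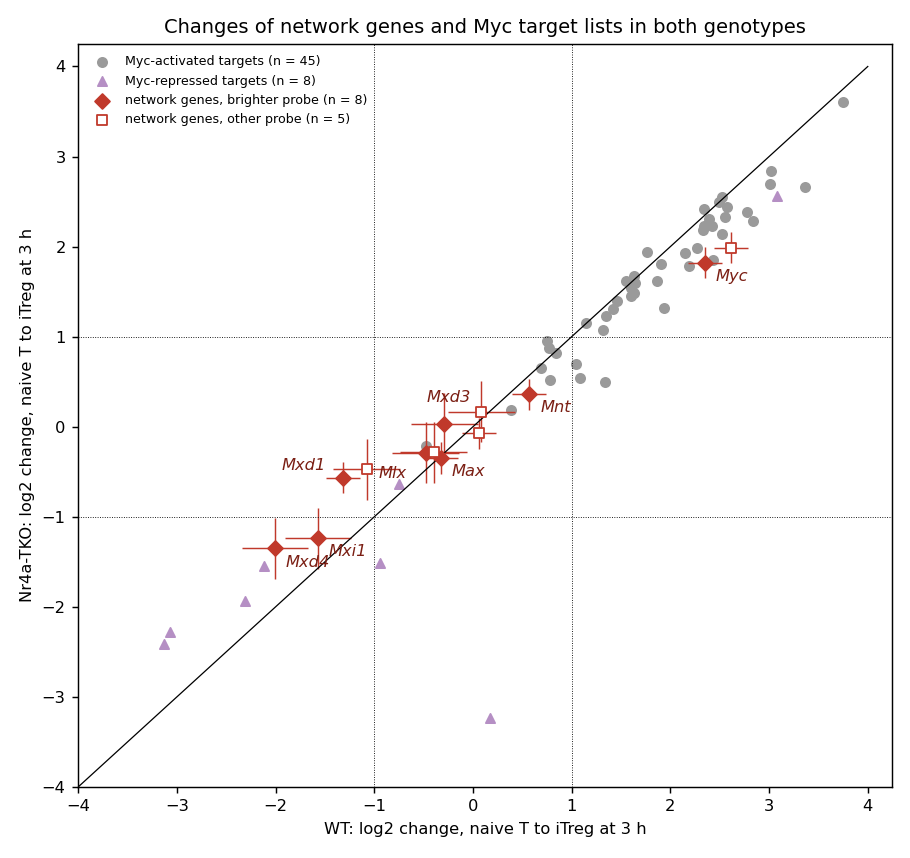
Log2 change between the naive stage and 3 h, with WT on the horizontal and Nr4a-TKO on the vertical axis, for network genes (red, filled for the brighter probe and open for the other, with bars of 1 SD of a difference between spots) and for genes described as activated (grey circles) or repressed (violet triangles) by Myc, where measured on all arrays. The solid line marks equal change and dotted lines 2-fold. Most activated genes lie at the upper right, a little below the line, as Myc does, and Mxd4, Mxi1 and Mxd1 lie at the lower left, above the line.

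Genes described as repressed by Myc did not share a direction. Of the 12 listed, 10 could be compared, and 2 were over 2-fold higher and 4 over 2-fold lower in WT, with a median of -0.85, beside 8.59% and 9.01% of all genes and their median of -0.06. In Nr4a-TKO, 3 were higher and 6 lower, with a median of -1.54, beside 8.03% and 8.43% and a median of -0.02. The cell cycle inhibitor Cdkn1b was 8.79-fold lower at 3 h in WT and 5.31-fold lower in Nr4a-TKO, and Ndrg2 and Gadd45a were lower by 8.40-fold and 4.98-fold in WT. In contrast, Ndrg1 was higher by 8.45-fold in WT and 5.91-fold in Nr4a-TKO. The inhibitor Cdkn1a, chosen after its values were seen and not well above background in naive T, was at least 4.47-fold higher in WT and at least 8.47-fold higher in Nr4a-TKO. Cdkn2b stood apart on 1 array: its brighter probe read 7.12 in Nr4a-TKO naive T against 3.91 in WT naive T, and 4.08 in WT and 3.88 in Nr4a-TKO at 3 h, while its other probe was not well above background on any array. None of the 9 listed genes with an entry held the E-box, beside 8.09% of all genes, a share at which few or none would be found among so few genes.

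Genes for the proteins that work with the network at chromatin were mostly within 2-fold. Of 15 genes for Myc co-factors, 3 were over 2-fold higher in each genotype and none lower (8.59% and 9.01% of all genes in WT, 8.03% and 8.43% in Nr4a-TKO), namely Ruvbl2 (1.49 in WT and 1.46 in Nr4a-TKO), Wdr5 (1.19 and 1.35) and Ruvbl1 (1.12 and 1.16), which encode subunits of chromatin-modifying complexes. The other probe of Ruvbl2 did not share this, with -0.34 and -0.15. The lowest changes at the brightest probes were in Actl6a (-0.58 and -0.70), the acetyltransferase gene Ep300 (-0.42 and -0.54) and Trrap (-0.33 and -0.29). Other probes of these genes differed: a second Ep300 probe was past 2-fold at -1.20 and -1.01, whereas the other 2 probes of Actl6a read higher at 3 h, at 0.51 and 1.11 in WT. Of 10 genes of the Sin3 co-repressor that Mxd and Mnt recruit, 2 were over 2-fold higher and 1 lower in WT, beside 8.59% and 9.01% of all genes. In Nr4a-TKO 3 were higher and none lower, beside 8.03% and 8.43%. In a list of 10 genes, 1 is close to these shares, and the counts of higher genes lie above them but rest on few genes. Sap30, a Sin3 subunit, was higher by 5.96-fold in WT and 5.52-fold in Nr4a-TKO, and Rbbp7 by 2.41-fold and 2.17-fold. The deacetylase genes differed in direction, with Hdac1 at -1.02 and -0.88 and Hdac2 at 0.88 and 1.13. Ncor1, a further co-repressor gene, was at -0.70 and -0.64, and Sap18 at -0.09 and -0.18.

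Among 13 genes that act on the stability of Myc protein, 2 were over 2-fold higher and 1 lower in each genotype, which for so short a list is near the shares of all genes (8.59% and 9.01% in WT, 8.03% and 8.43% in Nr4a-TKO). The kinase gene Pim3 was higher by 5.28-fold in WT and 3.83-fold in Nr4a-TKO. Pim1, a related kinase known to phosphorylate and stabilize Myc, read 7.33 in WT and 6.00 in Nr4a-TKO naive T, and 9.36 in WT and 8.11 in Nr4a-TKO at 3 h. It was thus higher at 3 h by about the same amount in both genotypes (2.04 and 2.10), but lower in Nr4a-TKO than in WT at both stages, by 2.50-fold in naive T and 2.38-fold at 3 h, and was the only gene of this list past 2-fold between the genotypes at 3 h. Gsk3b, a kinase that marks Myc for degradation, was lower at 3 h by 2.66-fold in WT and 2.20-fold in Nr4a-TKO at its brightest probe. Its next probes were lower by 2.51-fold and 2.15-fold, and by 1.78-fold and 2.15-fold. The dimmest probe hardly changed, at -0.14 and -0.08. The deubiquitinase genes Usp37 (0.93 and 0.72) and Usp28 (-0.80 and -0.69) and the ubiquitin ligase gene Fbxo32 (-0.62 and -0.84) stayed within 2-fold. Fbxw7, which encodes the ubiquitin ligase subunit that recognizes phosphorylated Myc, was chosen after its values were seen and had changes of 0.84 and 0.80.

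The relatives outside the 9 members that could be measured stayed within 2-fold. Mga, a further Max partner, had changes of 0.12 in WT and 0.10 in Nr4a-TKO, and Mlxip, the MondoA gene, 0.96 and 0.33. The brightest of 3 probes of Mlxipl read between 12.66 and 12.98, with changes of -0.31 and -0.32, and the dimmest had changes of 0.19 and 0.38. Mycl was not well above background on any array. Of the 2 listed targets of Mlx with MondoA, Txnip, an inhibitor of glucose uptake, was lower, from 9.70 in WT naive T and 9.47 in Nr4a-TKO naive T to 5.62 and 6.14 at 3 h, or 16.9-fold and 10.1-fold. Arrdc4 did not share it, at 0.08 and -0.21.

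The genes whose pattern over the 4 arrays was nearest to that of Myc, by Euclidean distance of log2 levels after each gene's own mean was subtracted, were Foxred2 (0.22), Hilpda (0.22), Eif2b3 (0.23), Rrp9 (0.23) and Ydjc (0.23), out of 16739 genes well above background on the 4 arrays. All 5 were higher at 3 h in both genotypes and read lower in Nr4a-TKO than in WT at 3 h, by between 0.37 and 0.56. Those nearest to Mxd4 were Ngly1 (0.05), Slc9a3r1 (0.07), Gnai2 (0.12), Camk2g (0.12) and LOC102642448 (0.15). All of them were lower at 3 h, by between 1.94 and 2.13 on the log2 scale in WT and by at least 1.30 in Nr4a-TKO. These directions follow from the choice of genes by nearness to Myc or to Mxd4 and are not separate results. With only 4 arrays, such likeness describes these arrays and nothing further.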

How the data were processed

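RNA of 4 groups was measured on 4 single-colour arrays, on 1 slide and in 1 scan. For each array the authors deposited the spot output of Agilent Feature Extraction 11.5.1.1, with mean intensity, local background intensity and flags, and probe coordinates on mm9. The authors also deposited a log2 table. Its values equal the logarithm of the processed intensity after subtraction of each array's 75th percentile, whereas the methods name RMA. It was used as an alternative.

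Here, intensities were background-corrected (normexp, offset 0) and quantile-normalized in R 4.3.3 by the package limma 3.58.1, put on the log2 scale and averaged per probe. Left out were control spots and 115 to 160 flagged spots per array, and no spot was saturated. Between 65.0% and 67.6% of the probes were well above background. A dimmer probe that read below the lowest level of any such probe on its array was raised to that level. A dimmer probe already above that level kept its reading. In both cases the difference was treated as a bound, and a difference needed 1 of the 2 arrays above background. Genes were the 27248 symbols in the files (46291 of 56605 probes), each represented by its brightest probe. The threshold was 2-fold, as in the study. With 1 array per group no test was possible, and the number of arrays limits the precision. Files were read by data.table at version 1.17.8. Later steps used Python 3.11.15, pandas 2.3.3, numpy 2.4.6 and matplotlib 3.10.9. The counting of differences past 2-fold was tested on simulated data. The planted changes lay well past the threshold and the noise was that of repeated spots. This checks the counting step alone and says nothing on variation between mice or cultures.

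The members and gene lists were chosen with earlier results of these data known. A gene of the list on Myc stability is not reported here and was left out of its counts. Named are all members at every probe, the 3 largest rises and 3 largest falls of each pathway list in WT among genes above background on all arrays, genes of these lists over 2-fold apart between the genotypes at 3 h, the 5 genes nearest to Myc and to Mxd4, and the Nr4a genes. Marker lists fell under the same rule but are given by counts and sums, with names only for genes over 2-fold apart at 3 h and a few chosen after their values were seen. Alternatives were 75th-percentile scaling, an offset of 50, no background correction, the deposited log2 values, the mean of a gene's probes, stricter and no filters on dim probes, and thresholds of 1.5-fold and 3-fold.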

Additional observations from a re-analysis of the deposited data

How the results depend on the processing

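No paired analysis was possible because each group has 1 array and no result comes from a test. Over 338 probe-level values of the members under the alternatives, 14 that had been past 2-fold no longer were and none past 2-fold changed sign. Of values within 2-fold, 47 moved by more than the spot SD of 0.18. The other 277 stayed past 2-fold or moved by less. Part of these could not move, since the settings that alter the filter on dim probes leave probes well above background on all 4 arrays unchanged. Myc at the brighter probe stayed between 2.30 and 2.51 in WT and between 1.77 and 2.04 in Nr4a-TKO, and between -0.66 and -0.59 between the genotypes at 3 h. The dim repressors depended on the background step: in WT, Mxd4 ranged from -2.60 to -0.72, Mxi1 from -2.06 to -0.59 and Mxd1 from -1.51 to -0.74, and Mxd1 between the genotypes at 3 h ranged from 0.61 to 1.32.

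Members over 2-fold lower at 3 h numbered 0 in WT with an offset of 50, 1 at 3-fold (Mxd4), and 2 with the mean of probes and without background correction (Mxd1 and Mxd4, without Mxi1), and in Nr4a-TKO 0 with an offset of 50, 0 without background correction, 0 at 3-fold and 1 with the mean of probes (Mxd4). Members over 2-fold higher numbered 2 in each genotype without a filter on dim probes (Myc and Mycn). Between the genotypes at 3 h, members higher in Nr4a-TKO numbered 0 with an offset of 50, without background correction, with the mean of probes and at 3-fold, and 2 at 1.5-fold (Mxd1 and Mxi1), and 1 was lower at 1.5-fold (Myc). In naive T, 1 was lower at 1.5-fold (Mlx). The median of the Myc-activated genes was 2.07 in WT with the deposited values and with 75th-percentile scaling, and with an offset of 50 it was 1.57 in WT (1.575) and 1.44 in Nr4a-TKO. The cause was not tested.

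Over all genes, an offset of 50 left 854 higher and 863 lower in WT, 752 and 748 in Nr4a-TKO, 82 and 71 between the genotypes in naive T and 64 and 88 at 3 h. Between the genotypes, in naive T and at 3 h in turn, counts were 152 and 137, and 145 and 158, without background correction, 184 and 159, and 206 and 183, with both arrays above background, and 770 and 698, and 754 and 731, without a filter, while 75th-percentile scaling gave 542 and 482, and 565 and 521. The signal over background of dim probes limits these values.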
